A study of Mus musculus with 2 samples.

Results

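The Polycomb and Trithorax group genes were read on 2 arrays, 1 of wild-type and 1 of Bhlha9 knockout limb bud RNA. They comprised 41 genes, chosen by name, of 18193 genes with a probe set (the set of short probes that reads 1 transcript) annotated to a single symbol. All 105 probe sets that carried 1 of these symbols were taken, of 45037 that were not controls. The genes were described by complex, with 10 of Polycomb repressive complex 2 (PRC2) and 15 of Polycomb repressive complex 1 (PRC1). The others were 2 H3K27 demethylases, 4 subunits of the MLL methyltransferase complexes and 10 subunits of the BAF chromatin remodelling complex. Both RNAs came from whole limb buds of C57BL/6 embryos at E10.5. The knockout group carried a Bhlha9 knockout, whose allele design is not given in the sources used here, and the wild-type group served as its control. The Bhlha9 protein is a transcription factor of the basic helix-loop-helix family, and the comparison asks which transcripts differ without it. How many embryos were pooled for each RNA is likewise not given in the sources used here. With 1 array per genotype there was no test of the genotype and no biological error, so "higher" and "lower" describe these 2 arrays.

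Polycomb and Trithorax proteins keep genes off or on through cell divisions, and they were first known for holding Hox genes in their domains along the body. PRC2 methylates histone H3 at lysine K27. PRC1 binds that mark through its Cbx subunits and attaches ubiquitin to histone H2A. The MLL complexes place methyl groups on lysine K4 of H3 at active genes, and BAF slides or evicts nucleosomes with the energy of ATP. In the limb bud, Polycomb complexes are known to restrain the distal HoxD genes and other patterning genes outside their proper territory.

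The deposited values are MAS 5.0 signals on a linear scale, and a signal was called detected above a floor of 41.2 (wild-type array) or 41.8 (knockout array). Each gene is given by its probe set with the highest mean signal unless another is named, and log2 ratios are those of knockout over wild-type. The disagreement between pairs of probe sets of 5440 genes gave an error of 0.28 (robust SD) for 1 log2 ratio, which leaves out differences between embryos and RNA preparations. A fold of 1.5 was used beside the usual 2-fold, since few members might pass 2-fold. Signals of different probe sets were ranked, and summed over gene lists, but no gene was called more abundant than another from them.

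The 2 RNAs differed in marker signals of several tissues and in control signals. Bhlha9 itself was not detected, at 7.87 and 1.70, and so did not check the labels. Pairs of signals are given in the order wild-type, knockout throughout. The 13 limb mesenchyme markers were detected on both arrays, with summed signals of 39227 and 22066. The sum over 13 neural markers was 1617 and 7412, and 12 of them exceeded 2-fold in the knockout RNA. The sum over 10 liver markers was 359 and 34118, with 2 of them detected in wild-type and 10 in knockout RNA. The summed signals of 10 muscle markers were 2900 and 4718, and those of 9 ectoderm markers 6021 and 10165. Endothelial markers went from 4716 to 3785 and erythroid markers from 85032 to 90299. Sums weigh bright genes most, and by gene 5 of the 6 endothelial markers were below 0 and 1 above, with a median log2 ratio of -0.70. No marker of these lists lay under the floor on both arrays. The 3 control probe sets for 18S ribosomal RNA were 3.54-fold to 5.17-fold higher on the knockout array. The ratio of 3′ to 5′ signal was 1.45 and 1.88 for actin, and 0.925 and 0.848 for Gapdh. The part of these differences in the ratios of the chromatin genes was not tested, and in whole tissue fewer cells of a type and less RNA per cell cannot be told apart.

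Of the 41 genes, 39 were detected, and each of these was above the floor on both arrays. The 2 others were Cbx7, at 37.8 and 27.7, and Phf19, at 24.3 and 32.8, for which no ratio is given. No gene reached 2-fold in either direction, whereas 4.15% of all detected genes lay 2-fold or more above level and 2.65% lay 2-fold or more below. At 1.5-fold, Rnf2 and Bmi1 were higher, which is 5.13% of the 39 genes against 11.2% of all genes. Another 6 were lower, namely Phc1, Smarca4, Ring1, Cbx8, Smarcc2 and Cbx2, or 15.4% against 11.7% of all genes. Counts past 1.5-fold were thus near or under those of the whole array, but these shares were not matched for signal. With all genes in 5 classes of signal, the robust SD of the ratio was 0.34 in the brightest and 0.58 in the dimmest. The brightest class held 19 of the 39 genes, so fewer of them past a fold cannot be read as a trait of the members. The direction of small ratios was more uneven, with 27 of the 39 below 0, or 69.2%, against 50.9% of all genes detected on both arrays. The median log2 ratio was -0.18, against -0.01 for all such genes.

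**Figure D1:**
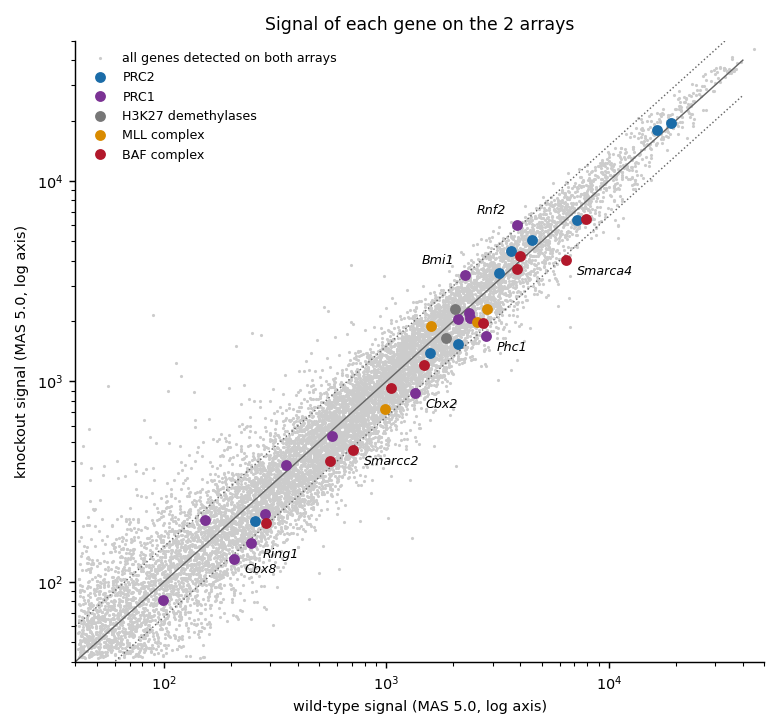
Wild-type signal against knockout signal on log axes, with 1 grey point for each gene detected on both arrays and coloured points for the Polycomb and Trithorax genes by complex. The solid line marks equal signals and the dotted lines 1.5-fold, and of the coloured points only the 8 named genes lie outside the dotted lines, Rnf2 and Bmi1 above and the other 6 below.

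The complexes differed in where their ratios lay. The PRC2 median was 0.02 over 9 genes, with 4 below 0. PRC1 had the widest spread, from -0.73 to 0.65, with a median of -0.15 over 14 genes, of which 10 were below 0. The 4 MLL subunits had a median of -0.33 and 3 were below 0. BAF had a median of -0.38 over 10 genes, and 9 of the 10 were below 0. These are descriptions of 2 arrays, and the differences between the complexes were not tested.

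**Figure D2:**
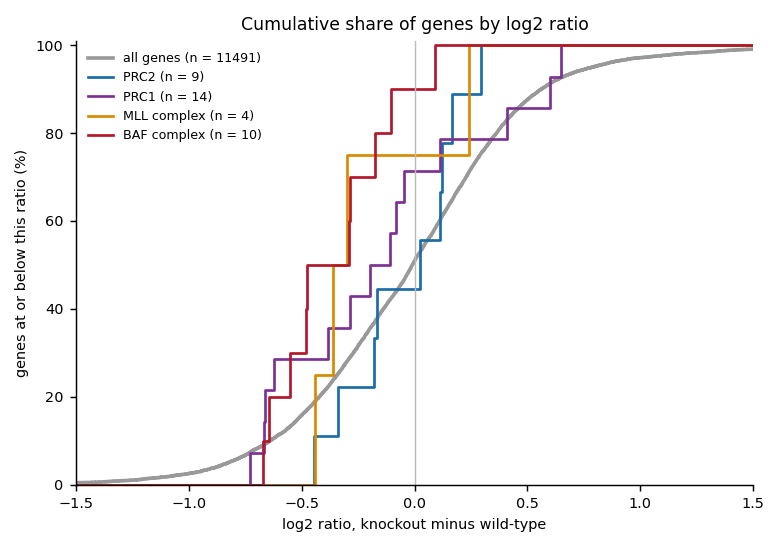
Cumulative share of genes (%) at or below each log2 ratio, knockout minus wild-type, for the 4 complexes and for all 11491 genes detected on both arrays. The BAF curve reaches 90% below a ratio of 0, where the curve of all genes stands at 50.9% and the PRC2 curve at 44.4%.

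When all genes were ranked by signal and cut into 5 equal classes, 19 of the 39 lay in the brightest class. That class had a median log2 ratio of 0.09 over all its genes, against -0.10 over these 19. The 5 BAF genes in it had a median of -0.29 and the 6 PRC2 genes one of 0.12. The class below it had a median of 0.00 over all genes and -0.18 over its 8 members. There the order of the complexes was not the same, with -0.23 over 2 BAF genes, -0.31 over 2 PRC2 genes and -0.33 over 2 PRC1 genes.

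The promoters of the 2 genes past 1.5-fold in the higher direction, Rnf2 and Bmi1, and of the 2 lower ones that stayed past it under every other setting, Phc1 and Smarca4, are shown here, since Bhlha9 belongs to a family of factors that bind E-box letters, CANNTG. They are RefSeq windows of 300 bases on GRCm38.p6, from 250 bases before to 50 bases after the gene's start, printed 5′ to 3′ along the gene's strand. Capitals mark each E-box, and the motif reads the same on both strands. Rnf2 lies at chr1:151500942-151501241 on the minus strand, Bmi1 at chr2:18676768-18677067 on the plus strand, Phc1 at chr6:122340178-122340477 on the minus strand and Smarca4 at chr9:21615919-21616218 on the plus strand.
Rnf2: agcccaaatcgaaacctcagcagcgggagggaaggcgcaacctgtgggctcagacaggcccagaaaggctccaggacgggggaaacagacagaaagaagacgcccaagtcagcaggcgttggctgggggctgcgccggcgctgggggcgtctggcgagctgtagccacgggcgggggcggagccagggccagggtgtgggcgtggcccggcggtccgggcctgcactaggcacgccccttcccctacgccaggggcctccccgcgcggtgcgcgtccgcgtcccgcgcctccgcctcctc
Bmi1: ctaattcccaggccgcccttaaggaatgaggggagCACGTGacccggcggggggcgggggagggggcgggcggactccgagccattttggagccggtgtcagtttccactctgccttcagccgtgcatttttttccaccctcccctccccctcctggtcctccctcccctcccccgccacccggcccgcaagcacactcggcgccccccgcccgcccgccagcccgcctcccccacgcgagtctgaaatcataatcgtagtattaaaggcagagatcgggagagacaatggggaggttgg
Phc1: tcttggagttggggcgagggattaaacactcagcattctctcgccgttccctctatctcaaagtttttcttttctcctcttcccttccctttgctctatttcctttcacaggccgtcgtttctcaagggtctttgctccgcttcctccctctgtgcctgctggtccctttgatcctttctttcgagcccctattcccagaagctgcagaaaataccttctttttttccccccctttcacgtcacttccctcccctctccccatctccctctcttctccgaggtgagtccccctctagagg
Smarca4: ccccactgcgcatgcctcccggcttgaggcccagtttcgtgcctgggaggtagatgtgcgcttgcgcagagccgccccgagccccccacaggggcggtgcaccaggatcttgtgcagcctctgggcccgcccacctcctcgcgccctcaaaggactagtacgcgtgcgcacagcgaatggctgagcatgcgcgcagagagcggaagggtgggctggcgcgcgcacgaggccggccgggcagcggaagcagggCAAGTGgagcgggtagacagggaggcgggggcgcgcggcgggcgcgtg
The Bmi1 window held 1 E-box, with the letters CACGTG upstream of the start, and the Smarca4 window held 1, CAAGTG. The letters CANNTG were absent from the Rnf2 and Phc1 windows. Of all 32851 promoter windows of this length, 72.3% held at least 1 E-box. Of the 47 windows that matched 36 of the 41 genes, 25 did, or 53.2%. The Phc1 window differed from the other 3 in base composition, with 9 CG dinucleotides and a G+C share of 52.0%. The Rnf2, Bmi1 and Smarca4 windows held 30, 23 and 33 CG dinucleotides. Over all windows of the members the median was 24 CG dinucleotides, against 7 over all windows. Binding of Bhlha9 was not measured in these data.

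PRC2 was close to level between the arrays in its catalytic core. Ezh2, the main H3K27 methyltransferase of dividing embryonic cells, read 7154 and 6373, a log2 ratio of -0.17. Ezh1, its paralogue that is typical of resting cells, read 256 and 202, a ratio of -0.34, and -0.16 by a dimmer probe set. A dim further one read 48.1 and 3.25, under the floor in the knockout RNA. Both ratios of the catalytic subunits were thus below 0 and within 1.5-fold. Eed, the subunit that reads the methyl mark and stimulates the enzyme, read 3624 and 4445, a ratio of 0.29. Suz12, the scaffold of the complex, read 3198 and 3483 by its brightest probe set, a ratio of 0.12. Its 5 further probe sets ran from 0.17 to 0.55. All 6 Suz12 probe sets were therefore above 0, but none reached 1.5-fold.

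The histone chaperone subunits Rbbp4 and Rbbp7 also belong to other chromatin complexes. Rbbp7 read 16516 and 17879, a ratio of 0.11, and 14123 and 15434 by its other probe set, a ratio of 0.13. Its 2 probe sets agree within the measurement error, and the brightest stood at -0.02 after quantile or loess normalization. Rbbp4 read 19061 and 19370 by its brightest probe set, which is of a kind prone to cross-hybridisation, a ratio of 0.02. A second Rbbp4 probe set went from 4959 to 8206, a ratio of 0.73, and another from 2049 to 3155, a ratio of 0.62. The dimmest went the other way, from 1679 to 1146, a ratio of -0.55. The direction of Rbbp4 was thus not settled by its probe sets.

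The accessory subunits steer PRC2 to its sites. Jarid2, which helps PRC2 bind chromatin, had the lowest ratio of the 9 PRC2 genes, at 2106 and 1544, a ratio of -0.45. Its 2 further probe sets gave -0.41 and -0.56, so all 3 were lower on the knockout array by a similar amount. Mtf2, a Polycomb-like protein that links PRC2 to unmethylated CpG islands, read 4517 and 5069, a ratio of 0.17. Further Mtf2 probe sets went from 3366 to 3790 (0.17), from 2614 to 3958 (0.60) and from 1657 to 2946 (0.83), whereas a dim one went from 127 to 105 (-0.28). The 4 brightest Mtf2 probe sets were all above 0, and 2 of them past 1.5-fold. A further one was detected in wild-type RNA alone, at 55.9 and 37.4. Aebp2, a zinc finger cofactor found with Jarid2, read 1572 and 1390, a ratio of -0.18. Its 3 further probe sets detected on both arrays spread from -0.41 to 0.79, which leaves no common direction. Another was detected in wild-type RNA alone, at 63.3 and 34.9.

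**Figure D3:**
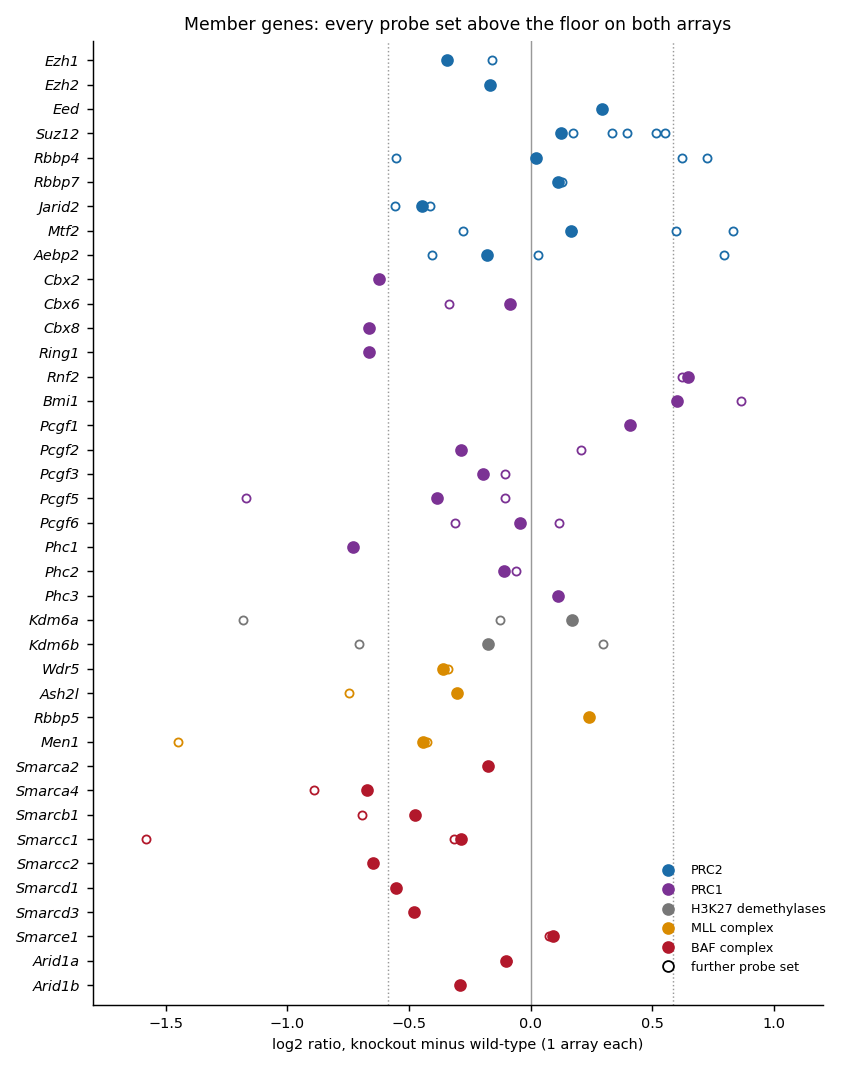
Log2 ratio, knockout minus wild-type, of every probe set above the floor on both arrays for the 39 detected genes, with the brightest probe set filled and further ones open, and dotted lines at 1.5-fold. An open point lies beyond -1 for 1 probe set each of Smarcc1, Men1, Kdm6a and Pcgf5. Points lie on both sides of 0 for Rbbp4, Mtf2, Aebp2, Pcgf2, Pcgf6, Kdm6a and Kdm6b.

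PRC1 held members in both directions, and its pair of ubiquitin ligases was split. Rnf2, also called Ring1B and the main ligase for H2A in embryonic cells, read 3844 and 6027 and was 1.57-fold higher. Its second probe set went from 2427 to 3732, a ratio of 0.62 beside 0.65 for the first, and another was detected on the knockout array alone, at 11.2 and 52.3. Ring1, the paralogue of Rnf2, read 247 and 156 and was 1.59-fold lower by its only probe set, a ratio of -0.67. The 2 ligase genes thus stood more than 1.5-fold from level on opposite sides. The ratios were also read under 8 other settings for scaling, floor and choice of probe set, of which 4 or 5 changed the value of any 1 gene past 1.5-fold. Under these, Rnf2 lay between 0.54 and 0.69 and was past 1.5-fold under 6. Of the 5 settings that changed Rnf2, quantile normalization (0.58) and the mean over detected probe sets (0.54) took it within 1.5-fold. Ring1 lay between -0.67 and -0.52 and was past 1.5-fold under 5. Only 4 of the 8 changed Ring1, and of these median centring alone (-0.62) kept it past 1.5-fold.

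The Pcgf proteins pair with the ligase and define the forms of PRC1. Bmi1, a Pcgf protein of canonical PRC1 known for repressing the Cdkn2a cell cycle inhibitors, read 2247 and 3405 and was 1.52-fold higher. Its second probe set went from 1326 to 2416, a ratio of 0.87 beside 0.60. Both were higher on the knockout array, and Bmi1 lay between 0.56 and 0.73 under the 8 other settings, past 1.5-fold under 6. Of the 5 settings that changed its value, quantile (0.56) and loess (0.57) normalization took it within 1.5-fold. Pcgf2, or Mel18, the close paralogue of Bmi1, was dim, at 99.3 and 81.4 by one probe set (-0.29) and 82.3 and 95.2 by the other (0.21), and so gave no direction. Pcgf1, of the variant complex with Bcor, read 152 and 202, a ratio of 0.41 from a single dim probe set.

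The Pcgf3 and Pcgf5 proteins form a variant PRC1 that contains neither Cbx nor Phc subunits. Pcgf3 read 2383 and 2079, a ratio of -0.20, and -0.10 by a dimmer probe set. Pcgf5 read 284 and 217, a ratio of -0.38. A second Pcgf5 probe set of similar wild-type signal went from 286 to 127, a ratio of -1.17, and another from 55.0 to 51.2. All 3 were below 0, but the ratio of -1.17 lay apart from the others, -0.38 and -0.10, by more than the measurement error. Pcgf6, of the variant complex with E2f6 and Mga that keeps germline genes silent, read 2101 and 2037, a ratio of -0.04, and its other probe sets gave -0.31 and 0.12. No Pcgf gene other than Bmi1 passed 1.5-fold by its brightest probe set.

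The Cbx proteins carry the chromodomain through which canonical PRC1 binds methylated H3K27. Each of the 3 detected Cbx genes was below 0 by its brightest probe set, except that Cbx6 stood at 0.03 after quantile or loess normalization. Cbx2, a compacting subunit needed for axial patterning and gonad development, read 1343 and 871 and was 1.54-fold lower. Its second probe set read 21.9, under the floor, and 48.3, just above it. With all detected probe sets averaged, the Cbx2 ratio was -0.20 in place of -0.62. Cbx8 read 206 and 130 and was 1.58-fold lower by its only detected probe set, a ratio of -0.66 that moved to -0.42 when the floor was raised to the 60th percentile. Cbx6 read 566 and 535, a ratio of -0.08, and 317 and 252 by its other probe set, a ratio of -0.33. Cbx2 and Cbx8 were each past 1.5-fold under 4 of the 8 other settings, but only 5 of the 8 changed the value of each. Among those that did, only the pseudocount of 32 left Cbx2 past 1.5-fold (-0.61). For Cbx8 only median centring did so (-0.62).

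The Phc proteins, homologues of fly polyhomeotic, join PRC1 units into larger bodies. Phc1 read 2789 and 1682 and was 1.66-fold lower, the lowest ratio of the 39 genes by brightest probe set, at -0.73. It has a single probe set, so no second reading was at hand, and under the 8 other settings it lay between -0.74 and -0.69, past 1.5-fold in each, but 4 of the 8 could not change it. Phc2 read 2359 and 2184, a ratio of -0.11, and its other probe set gave -0.06. Phc3 read 354 and 382, a ratio of 0.11. A dim Phc3 probe set read 48.0 and 30.9, under the floor in the knockout RNA, and the mean over both was -0.04. Among the 3 paralogues Phc1 alone was more than 1.5-fold from level, and the difference between them was not tested.

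The demethylases that remove the PRC2 mark were close to level by their brightest probe sets. Kdm6a, or Utx, which is X-linked and also sits in MLL complexes, read 2027 and 2284, a ratio of 0.17, and 1253 and 1147 by a second probe set, a ratio of -0.13. Another, dimmer Kdm6a probe set went from 339 to 150, a ratio of -1.18. Kdm6b, or Jmjd3, an inducible demethylase, read 1851 and 1640, a ratio of -0.18, and its other probe sets gave 0.30 and -0.71. A probe set shared by Kdm6b and 1700064E03Rik, which was not used for the gene, gave 0.43. Neither gene had a direction common to its probe sets.

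Among the MLL subunits, 3 of 4 were below 0. Wdr5, the histone-binding propeller at the centre of the complexes, read 2550 and 1985, a ratio of -0.36, and 445 and 352 by its other probe set, a ratio of -0.34. Ash2l, needed for full methyltransferase activity, read 2840 and 2306, a ratio of -0.30, and 133 and 79.1 by a dim probe set, a ratio of -0.75. Men1, which encodes menin, the tether of the MLL1 and MLL2 forms, read 987 and 726, a ratio of -0.44. A second Men1 probe set gave -0.43, and another, of a kind prone to cross-hybridisation, went from 212 to 77.7, a ratio of -1.45. Rbbp5, the remaining subunit of the 4, ran the other way, at 1593 and 1883, a ratio of 0.24. Of the 8 MLL probe sets detected on both arrays, 7 were below 0, or 87.5%, against 53.3% of all such probe sets.

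BAF genes were mostly below 0 by their brightest probe sets, 9 of 10, and by probe set its share below 0 equalled that of MLL, at 87.5%. Its 2 alternative motors were both below 0. Smarca4, or Brg1, the ATPase of embryonic BAF, read 6393 and 4010 and was 1.59-fold lower. Its second probe set went from 2952 to 1593, a ratio of -0.89 beside -0.67. Both readings were more than 1.5-fold down. Smarca4 stayed past 1.5-fold under all 8 other settings, of which 5 changed its value, between -0.78 and -0.63. Smarca2, or Brm, the ATPase that gains use in differentiated cells, read 1043 and 923, a ratio of -0.18, and its dimmer probe set read 55.7 and 36.7, the latter under the floor.

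Core BAF subunits bind and stabilise the motor. Smarcb1, or Snf5, which anchors the complex to the nucleosome, read 2707 and 1945, a ratio of -0.48, and 583 and 361 by a second probe set, a ratio of -0.69. That second probe set is of a kind prone to cross-hybridisation, and a further one was not detected, at 3.44 and 1.82. Smarcb1 had no value when only probe sets without an s, x or a suffix were used. Smarcc1, or Baf155, a scaffold of embryonic BAF, read 7908 and 6487, a ratio of -0.29, and 4373 and 3512 by a second probe set, a ratio of -0.32. Another Smarcc1 probe set went from 1230 to 412, a ratio of -1.58, the lowest of the 82 probe sets of members detected on both arrays. Smarcc2, or Baf170, the paralogue of Smarcc1, read 711 and 454 and was 1.56-fold lower, a ratio of -0.65. It was past 1.5-fold under 6 of the 8 other settings. Only 4 of the 8 changed its value, and quantile and loess normalization (both -0.53) took it within 1.5-fold. Both scaffolds were thus below 0, in every probe set detected on both arrays.

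The Smarcd proteins connect BAF to transcription factors. Smarcd1 read 288 and 196, a ratio of -0.55. Smarcd3, or Baf60c, known for its role in heart and muscle, read 560 and 402, a ratio of -0.48. The summed muscle signal was higher on the knockout array, with 3 of the 9 muscle markers detected on both arrays below 0, and its part in this ratio was not tested. Smarce1, or Baf57, a DNA-binding HMG protein, was the exception, at 3977 and 4238 by one probe set (0.09) and 3789 and 3991 by the other (0.08). The Arid proteins are large subunits that define canonical BAF. Arid1a read 3881 and 3616, a ratio of -0.10 in both of its probe sets, and Arid1b read 1473 and 1203, a ratio of -0.29. Of the 16 BAF probe sets detected on both arrays, 14 were below 0, and the 2 others were those of Smarce1.

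**Figure D4:**
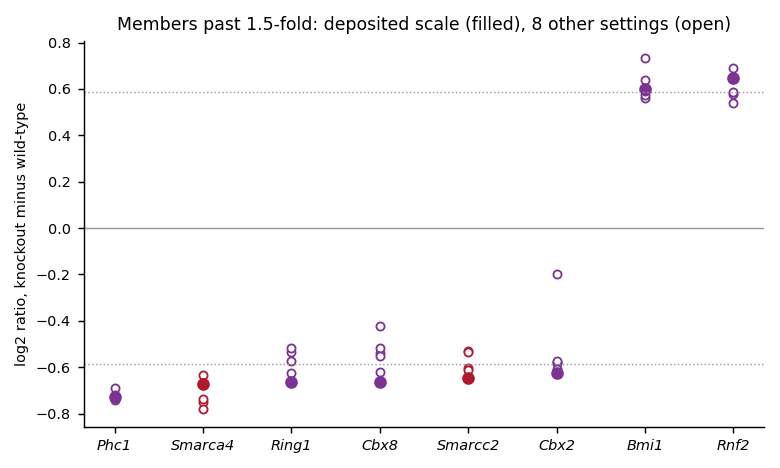
Log2 ratio, knockout minus wild-type, of the 8 members past 1.5-fold, on the deposited scale (filled) and under 8 other settings of scaling, floor and probe set (open), with dotted lines at 1.5-fold. No open point crosses 0, Phc1 and Smarca4 stay below the lower dotted line, and the Cbx2 point nearest 0 stands at -0.20.

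Over all 82 probe sets of members detected on both arrays, 51 were below 0, or 62.2%, against 53.3% of all probe sets. A difference of 2-fold or more was read by 4 of them, 1 each of Smarcc1, Men1, Kdm6a and Pcgf5, all in the lower direction. This is 4.88%, against 3.58% of all probe sets at least 2-fold lower. None was 2-fold higher, against 2.43% of all probe sets. None of these 4 was the brightest of its gene. Of 25 members with at least 2 such probe sets, 18 had all of them on the same side of 0, a count with no share over all genes beside it. By the 2 brightest of each gene, 20 of the 25 agreed in sign, against 69.4% of such pairs over 5440 genes. The error of 1 log2 ratio over the brightest pairs of these 25 genes was 0.18, against 0.28 over all genes. Neither this error nor the share of agreeing pairs was matched for signal, and 19 of the 39 detected members lay in the brightest signal class.

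Other genes of the same pathways were read from lists of further subunits and partners. Of 19 detected Polycomb genes outside the 41, 11 were below 0, or 57.9%, against 50.9% of all genes, and the median was -0.10. By probe set the share below 0 was 74.5%, against 53.3% of all probe sets. At 1.5-fold, 1 was lower and 0 were higher, or 5.26% and 0% against 11.7% and 11.2% of all genes. The lower one was Phf1, a Polycomb-like paralogue of Mtf2, at 213 and 66.7 by its only detected probe set, a ratio of -1.68. The partners of variant PRC1 read -0.58 for the CpG-binding Kdm2b, -0.51 for Bcor, 0.31 for Yaf2 and 0.28 for Mga, none of them past 1.5-fold.

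Of 15 further MLL and related genes, 12 were below 0, or 80.0%, against 50.9% of all genes, and the median was -0.27. By probe set the share was 70.6%, against 53.3% of all probe sets. Past 1.5-fold were 2, both lower, or 13.3% against 11.7% of all genes. Kmt2b, the methyltransferase also called MLL2, read 1172 and 685, a ratio of -0.77. Cxxc1, which brings the related Setd1 complexes to CpG islands, read 1132 and 677, a ratio of -0.74, and -0.19 by a dimmer probe set. Kmt2a, the founding MLL enzyme, stood at -0.18. Dpy30, a small shared subunit, had the highest ratio of the list at 0.42.

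Of 23 further BAF subunits and other remodellers, 14 were below 0, or 60.9%, against 50.9% of all genes, and the median was -0.13. By probe set the share was 65.5%, against 53.3% of all probe sets. At 1.5-fold, 4 were lower and 0 were higher, or 17.4% and 0% against 11.7% and 11.2% of all genes. Dpf1, a subunit typical of neuronal BAF, read 328 and 142, a ratio of -1.21, and -0.45 by a dim probe set. The part of neural tissue in this ratio was not tested. Actl6b, also neuronal, was not detected, at 21.3 and 27.6. Smarcd2, the remaining Smarcd paralogue, read 4840 and 3069, a ratio of -0.66, with -0.76 by its second probe set and 0.17 by a dim one. The remodeller Chd7 read 1976 and 1097, a ratio of -0.85, and -0.22 by its other probe set, and the BAF subunit Bicral was at -0.65 and -1.16. Of the subunits found in the related PBAF form but not in BAF, Pbrm1 stood at -0.17 and Arid2 at 0.06.

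**Figure D5:**
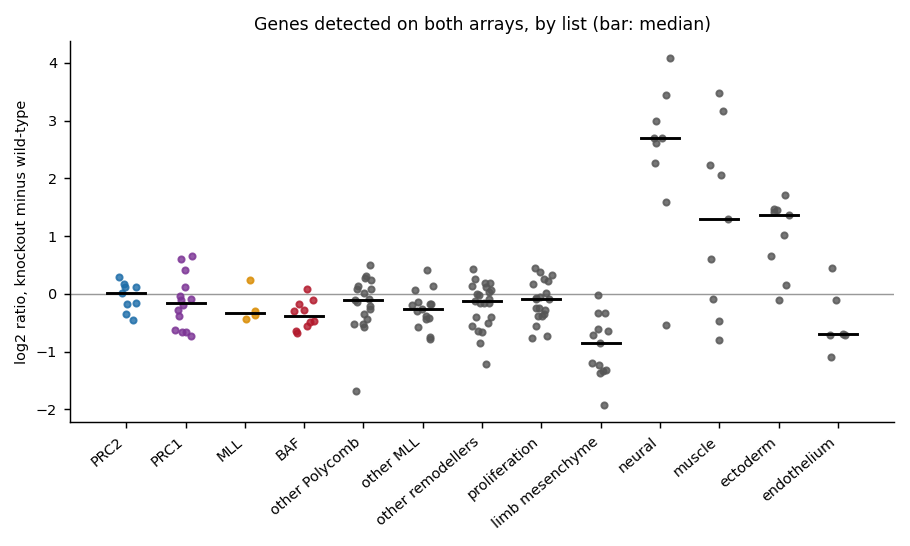
Log2 ratio, knockout minus wild-type, of genes detected on both arrays, with 1 point per gene and a bar at the median, for the 4 complexes, further genes of the same pathways, proliferation genes and markers of limb and other cell types. The medians of the 4 complexes lie between -0.38 and 0.02, those of limb mesenchyme at -0.86 and of neural markers at 2.70.

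Proliferation genes were read because many chromatin regulators are more abundant in dividing cells. Their summed signals were 150317 and 148711, with 20 of 20 detected on both arrays. Of these, 13 were below 0, or 65.0%, against 50.9% of all genes, and the median was -0.09. By probe set the share below 0 was 71.4%, against 62.2% of the members and 53.3% of all probe sets. At 1.5-fold, Plk1 and Tyms were lower, or 10% against 11.7% of all genes, and 0 were higher, against 11.2%. A second Tyms probe set was level at 251 and 253. Mki67 and Pcna, markers of cycling cells, stood at -0.08 and 0.17.

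Known Polycomb targets gave mixed readings. Of 23 genes read, 8 were detected on neither array, among them Cdkn2a at 19.9 and 3.32, the locus that Bmi1 is known to repress. Of the 15 detected, 5 were at least 1.5-fold higher and 5 lower, or 33.3% each, against 11.2% and 11.7% of all genes. Only 6 of the 15 were detected on both arrays, with 4 of these below 0 and 2 above. The 5 higher genes, Foxa2, Neurog2, Pax6, Gata4 and Neurog1, are regulators of endoderm or neural fate and were each detected on the knockout array alone, so that their ratios could only be positive. The 5 lower genes, Hoxa11, Hoxa13, Hoxd10, Hoxd11 and Hoxd12, are distal Hox genes of the limb. Of these, Hoxa13 and Hoxd12 were under the floor in the knockout RNA, so that their ratios could only be negative. Hoxd13, also a distal Hox gene of the limb, was level, at a ratio of -0.03. Pax6 and Neurog2 also stand in the list of neural markers, and Hoxa11 and Hoxd13 in that of limb mesenchyme. On the knockout array the liver, neural, muscle, ectoderm and erythroid marker sums were higher, and the limb mesenchyme and endothelium sums lower. With 1 array per genotype, any gene that differs shares its direction with some of these sums. The part of tissue content in the higher or the lower targets was not tested.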

How the data were processed

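RNA of whole limb buds was measured on Affymetrix Mouse Genome 430 2.0 arrays, 1 per genotype, from 200 ng of total RNA per the labels' protocols. The authors summarised the arrays with MAS 5.0, per the series' design text, and the deposited intensity values are on a linear scale, scaled per array to a 2% trimmed mean of 500.0. Of 45101 probe sets, 64 controls were set aside. The deposited platform annotation gave a single symbol to 34945, several to 932 and none to 9160, and all 105 of the members matched RefSeq (GRCm38.p6) by Entrez identifier. Signals under the 40th percentile of an array were raised to it, and each gene was represented by its probe set of highest mean signal. Log2 ratios and counts past 2-fold and 1.5-fold were computed with no test, since the number of arrays limits the precision. All members were named, and of each further list those past 1.5-fold, up to 4, with other values given as examples chosen after they were seen. Members and lists were chosen with earlier results of these data known. Alternatives were median centring, quantile and loess (span 0.3) normalization, floors at the 20th and 60th percentile, a pseudocount of 32, the mean over detected probe sets, and probe sets without an s, x or a suffix. The steps were tested on simulated data. Python 3.11.15, numpy 2.4.6, pandas 2.3.3, R 4.3.3 and limma 3.58.1 were used.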

Additional observations from a re-analysis of the deposited data

How the results depend on the processing

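The count of members past 2-fold stayed at 0 in both directions under all 8 alternatives. The 2 members at least 1.5-fold higher became 0 after quantile normalization, 1 after loess and 1 with the mean over detected probe sets. The 6 at least 1.5-fold lower became 2 after quantile normalization and 2 after loess. The PRC2 median of 0.02 turned negative under 3 of the 8, to -0.11 after loess, -0.06 after quantile normalization and -0.02 with unique probe sets only. The BAF median moved from -0.38 to -0.52 with the mean over detected probe sets, and the median of all members from -0.18 to -0.24 with unique probe sets only. The BAF, MLL and PRC1 medians kept their negative sign under all 8 alternatives. Median centring moved the median of all genes from -0.01 to 0.03. Of 310 single-gene values under the alternatives, 6 moved by more than the measurement error. They were those of Cbx2, Men1, Smarcc1 and Kdm6a with the mean over probe sets, and of Suz12 (0.55) and Rbbp4 with unique probe sets only. The sign turned in 9 values of 5 members, 0 of them past 1.5-fold on the deposited scale. These were Rbbp4 (-0.06, -0.11 and -0.55 after quantile, loess and with unique probe sets), Rbbp7 (-0.02 after quantile and after loess), Cbx6 (0.03 after both), and, with the mean over probe sets, Phc3 (-0.04) and Kdm6a (-0.38). Dim signals limit what Cbx8, Pcgf2, Pcgf1 and Ring1 can show. No paired analysis was possible because each genotype has 1 array, and for the same reason no replicate could be left out.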
